A study of Sus scrofa with 8 samples.

Results

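The 3' UTR peaks described here were all m6A peaks that the deposited peak lists placed in the 3' untranslated region (3' UTR) of a transcript in adipose tissue of Jinhua and Landrace pigs. They numbered 13346 of the 64752 peaks in 4 lists, against 47229 peaks in coding sequence. m6A stands for N6-methyladenosine, an adenosine of an RNA chain with a methyl group on its N6, and m6A-seq locates it by sequencing the mRNA fragments bound by an m6A antibody. The animals were 2 Jinhua pigs, a breed that the labels call fatty, set against 2 Landrace pigs, called leaner. All 4 were males aged 180 days, untreated as far as the labels say, and each gave an immunoprecipitation (IP) library and an input library of the mRNA before the pull-down. The sample titles carry the letters LB for this tissue, which the sources used here do not spell out. The members were found by the location column of the lists alone, so neither their number per gene nor their sharing between animals was fixed by the choice.

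The 3' UTR follows the stop codon and holds most binding sites for microRNAs and for proteins that govern how long an mRNA lasts, where it goes and how often it is translated. In mammals the methyltransferase complex of METTL3, METTL14 and WTAP places m6A co-transcriptionally, with a high density around the stop codon and in the 3' UTR. Reader proteins of the YTH family bind the mark there, and YTHDF2 is best known for bringing marked mRNAs to decay. ELAVL1 (HuR), which binds U-rich and AU-rich elements of 3' UTRs and stabilizes mRNAs, has also been linked to m6A.

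One library stood apart by its length. Landrace replicate 1 held 8909 peaks of all kinds, against 20688 and 16116 in Jinhua replicates 1 and 2 and 19039 in Landrace replicate 2. In the input libraries, the 14 skeletal muscle genes measured summed to 280.1 and 201.8 FPKM, a level per gene length scaled to the library, in Jinhua and to 212.3 and 3163 FPKM in Landrace. Landrace replicate 2 thus had the highest sum of muscle genes. The epithelium genes found in the data summed to 110.2 and 11.7 FPKM in Jinhua and 9.12 and 31.2 FPKM in Landrace, highest in Jinhua replicate 1. The 15 measured genes of lipid droplets and lipolysis, which mark adipocytes, summed to 6946 and 10470 FPKM in Jinhua and 15960 and 9025 FPKM in Landrace. In tissue RNA, fewer cells of a type and less RNA per cell cannot be told apart.

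The 3' UTR held a like share of the peaks in every animal. Jinhua replicates 1 and 2 had 4384 and 3502 peaks there, and Landrace replicates 1 and 2 had 1829 and 3631. As shares of all peaks of a library these came to 21.2% (95% Wilson interval 20.6 to 21.8) and 21.7% (21.1 to 22.4) in Jinhua, and to 20.5% (19.7 to 21.4) and 19.1% (18.5 to 19.6) in Landrace. Both Jinhua libraries lay above both Landrace libraries, although the intervals of Jinhua replicate 1 and Landrace replicate 1 overlapped. The mean was 21.5% ± 0.381 in Jinhua and 19.8% ± 1.03 in Landrace (SD, n = 2 each), a difference of 1.66 percentage points with p = 0.33 in a two-sided exact permutation test. That is the smallest p that 2 animals against 2 allow. The difference was 0.931 points without Landrace replicate 2, the library with the highest sum of muscle genes, and between 1.39 and 2.39 points without any 1 of the others. The intervals cover counting error only.

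The location that the authors gave a peak appeared to follow its end, which could not be checked against the annotation. On 3225 transcripts with peaks of both kinds, pooled over the libraries, every 3' UTR peak ended behind every coding peak. Ordered by peak starts, 132 of these transcripts had a coding peak behind a 3' UTR peak, and ordered by peak centres 36 did. If so, a peak that began in coding sequence and ended beyond the stop codon was listed in the 3' UTR. In C9orf16, an uncharacterized gene, nearly the same peak was listed as coding in Jinhua replicate 1, where it ended at base 332 of transcript ENSSSCT00000026071, and in the 3' UTR in Jinhua replicate 2, where it ended at base 335. Between the last end of a coding peak and the first end of a 3' UTR peak lay a median of 516 bases, an interval that would hold the stop codon under this reading.

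Under the same reading, that interval separated peaks at the stop codon from peaks deep in the 3' UTR. Of the 3' UTR peaks on such transcripts, 5.90% and 10.9% in Jinhua began at or before the end of the last coding peak, against 12.5% and 7.04% in Landrace, and so reached across the stop codon. Another 42.3% and 36.9% in Jinhua, and 32.9% and 42.0% in Landrace, began beyond the first end of a 3' UTR peak and so lay wholly within the 3' UTR. The rest could be either. Peaks wholly within the 3' UTR began a median of at least 598.5 and 420 bases behind the stop codon in Jinhua, and at least 399 and 544 bases in Landrace, with the farthest at least 7788 bases behind it in Landrace replicate 2. Peaks far behind that interval were thus listed in all 4 animals, and the files do not place the stop codon itself.

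Members resembled coding peaks in width. The median was 155 and 157 bases in Jinhua and 160 and 156 bases in Landrace, against 156 and 158 and 163 and 156 bases for coding peaks of the same libraries. The difference, 3' UTR minus coding sequence, averaged -1.25 bases (p = 0.25, two-sided exact sign-flip permutation test over 4 libraries, which allows no p under 2/16). No member was narrower than 100 bases, and the widest had 653 bases, in Jinhua replicate 2. Together they covered 685.2 and 583.2 kb of transcript in Jinhua and 313.2 and 577.3 kb in Landrace.

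Over the 4 animals 3824 genes had a 3' UTR peak. Jinhua animals had 2982 and 2483 such genes, which is 34.0% and 33.8% of their genes with any peak, and Landrace animals had 1433 and 2483, which is 29.9% and 30.5%. The order of the breeds was the same as for the peaks, with both Jinhua animals above both Landrace animals. Transcripts without an annotated 3' UTR can give no member, and the annotation was not used here. A symbol was known for 3510 of the 3824 genes.

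Most of these genes had a single 3' UTR peak. Genes with 1 peak made up 70.3% and 71.6% in Jinhua and 79.6% and 70.2% in Landrace, and genes with 3 or more made up 10.6% and 8.94% in Jinhua and 5.02% and 10.3% in Landrace. Jinhua had 1.44 ± 0.0423 peaks per such gene and Landrace 1.37 ± 0.132 (SD, n = 2 each; difference 0.07, p = 0.667 in a two-sided exact permutation test, which allows no p under 0.33). Without Landrace replicate 1, the short list, the difference turned to -0.02 peaks per gene, and without Landrace replicate 2 it was 0.16. Coding sequence had more peaks per gene with a coding peak in every library, with 1.99 and 1.88 in Jinhua and 1.64 and 1.99 in Landrace.

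**Figure D1:**
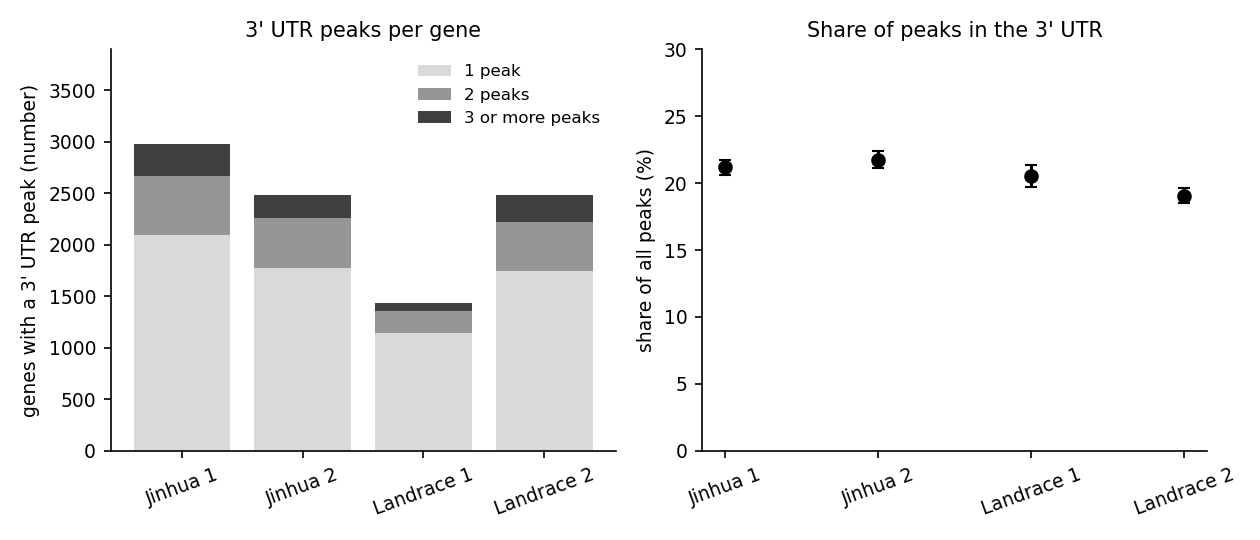
Left, genes with a 3' UTR peak in each IP library (number, y axis), stacked by 1, 2 and 3 or more such peaks; the single-peak class is the largest in each library and Landrace 1 has 1433 genes in all. Right, share of all peaks of a library that lie in the 3' UTR (%, y axis) with 95% Wilson intervals as bars; the points lie between 19.1% and 21.7%.

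A gene marked in the 3' UTR was usually marked in coding sequence as well. This held for 72.4% and 66.7% of the genes in Jinhua and 57.0% and 73.6% in Landrace, lowest in the short list of Landrace replicate 1. A 5' UTR peak accompanied 9.56% and 7.37% in Jinhua and 9.28% and 12.2% in Landrace. The genes whose peaks in that library lay in the 3' UTR alone made up 24.5% and 30.3% in Jinhua and 38.7% and 22.5% in Landrace. Only 93 genes kept to the 3' UTR in all 4 animals, with a peak there in each and none elsewhere in any.

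Transcripts with many 3' UTR peaks included enzymes and receptors of adipocytes. SCD, the stearoyl-CoA desaturase that makes monounsaturated fatty acids and one of the most abundant adipose mRNAs, had 6 and 6 3' UTR peaks in Jinhua and 4 and 8 in Landrace, against 2 and 2 and 2 and 1 in its coding sequence. Its input level was 1230 and 10690 FPKM in Jinhua and 1049 and 7065 FPKM in Landrace. Peak number and level did not go together within Jinhua, where the animals had equal numbers at very different levels. Within Landrace, replicate 2 had both more peaks and the higher level. On transcript ENSSSCT00000011546, the merged regions with a peak in all 4 animals included those at bases 1616 to 1781, 2291 to 2454 and 2877 to 3057, counted from 1 at the transcript's 5' end. Behind them, overlapping peaks from base 3355 on formed another region of all 4 animals, in which Jinhua replicate 1 had a peak at bases 3651 to 3803 and Landrace replicate 1 one at bases 3358 to 3559, which do not overlap each other. Peaks at bases 1931 to 2102 and 2557 to 2708 were listed in Jinhua replicate 1 and Landrace replicate 2 alone, 1 animal of each breed.

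ICMT, which methylates the carboxyl end of prenylated proteins, had 5 and 7 peaks in Jinhua and 4 and 5 in Landrace, and none in coding sequence in any animal. On transcript ENSSSCT00000003739, a peak between bases 2646 and 2803 began within 1 base and ended within 2 bases of the same place in all 4 animals. A peak between bases 2433 and 2597 was called in both Jinhua animals and in Landrace replicate 1, and one between 2042 and 2198 in both Jinhua animals and in Landrace replicate 2. The level of ICMT was 19.8 and 26.0 FPKM in Jinhua and 27.0 and 33.8 FPKM in Landrace, so that an mRNA of far lower level than SCD had nearly as many peaks.

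The scaffold protein gene AHNAK had 6 peaks in each of the 4 animals at 243.7 and 210.8 FPKM in Jinhua and 215.3 and 224.1 FPKM in Landrace. ARHGAP35, a GTPase-activating protein, had 5 and 6 peaks in Jinhua and 5 and 7 in Landrace. ADORA1, the adenosine A1 receptor that restrains lipolysis, had 6 and 4 in Jinhua and 4 and 6 in Landrace. None of these genes had a number of peaks that set the breeds apart.

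RAB22A, a GTPase of endosomes, was an exception with 7 and 5 peaks in Jinhua and 3 and 4 in Landrace, and it had a single coding peak in each animal. Its level ran the other way, with 9.67 and 12.0 FPKM in Jinhua and 13.9 and 13.0 FPKM in Landrace (limma, log2 difference -0.30, adjusted p = 0.650). The lysine methyltransferase gene SETD7 had 5 and 5 peaks in Jinhua and 5 and 4 in Landrace. NMT1, which myristoylates proteins, had 4 and 5 in Jinhua and 6 and 4 in Landrace. PTGIS, the prostacyclin synthase gene, had 5 and 5 in Jinhua and 3 and 6 in Landrace. FZD4, a receptor of WNT ligands, had 4 and 5 in Jinhua and 4 and 5 in Landrace.

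Neighbouring 3' UTR peaks on a transcript mostly lay well apart. The median distance between their centres was 512.75 and 396 bases in Jinhua, over 1402 and 1019 pairs, and 470.75 bases in both Landrace animals, over 396 and 1148 pairs. Coding peaks had medians of 476.75 and 440.5 bases in Jinhua and 479.5 and 453.5 bases in Landrace. The spacing was longer in the 3' UTR in Jinhua replicate 1 and Landrace replicate 2 and shorter in the other two libraries. The mean difference was 0.0 bases (p = 1.0, two-sided exact sign-flip permutation test over 4 libraries, smallest possible p 2/16).

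Some neighbours touched, with no base between them. They made up 11.6% and 21.3% of 3' UTR pairs in Jinhua and 13.6% and 14.1% in Landrace, against 11.6% and 16.4% and 12.4% and 12.6% of coding pairs. Jinhua replicate 2 had the most of them in both parts of the transcript, and such a pair may be 1 wide enriched stretch that the peak list divides. Numbers of peaks per gene count each piece of a divided stretch.

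At the other end were pairs that lay very far apart. In L3MBTL2, a chromatin gene of the Polycomb kind, neighbouring 3' UTR peaks of transcript ENSSSCT00000000072 were centred 4115.5 to 4165.5 bases apart in Jinhua replicate 2 and Landrace replicate 2. FAM13A, a gene near human variants for fat distribution, had a pair 3940.5 to 3945 bases apart in Jinhua replicate 1 and Landrace replicate 2. ATL3, an atlastin of the endoplasmic reticulum, had one 3450 to 3463 bases apart in both Jinhua animals and Landrace replicate 1. The distances of a pair differed by at most 50 bases between animals in these 3 genes, so the long gap was the same gap in each.

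ALDH1L2, a mitochondrial folate enzyme, had a pair 3227 to 3228.5 bases apart in Jinhua replicate 2 and Landrace replicate 1, and PMEPA1, an inhibitor of TGF-beta signalling, one 2946 to 2978 bases apart in both Jinhua animals. These 5 genes had the longest gaps seen in at least 2 animals. The next, in the ceramidase gene ACER2, had 2933.5 to 2962.5 bases in all 4 animals. ALDH1L2 had 4 and 2 3' UTR peaks in Jinhua and 2 and 3 in Landrace, so its gap came from the animals with the fewest peaks. A peak that was not called could lie in such a gap.

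**Figure D2:**
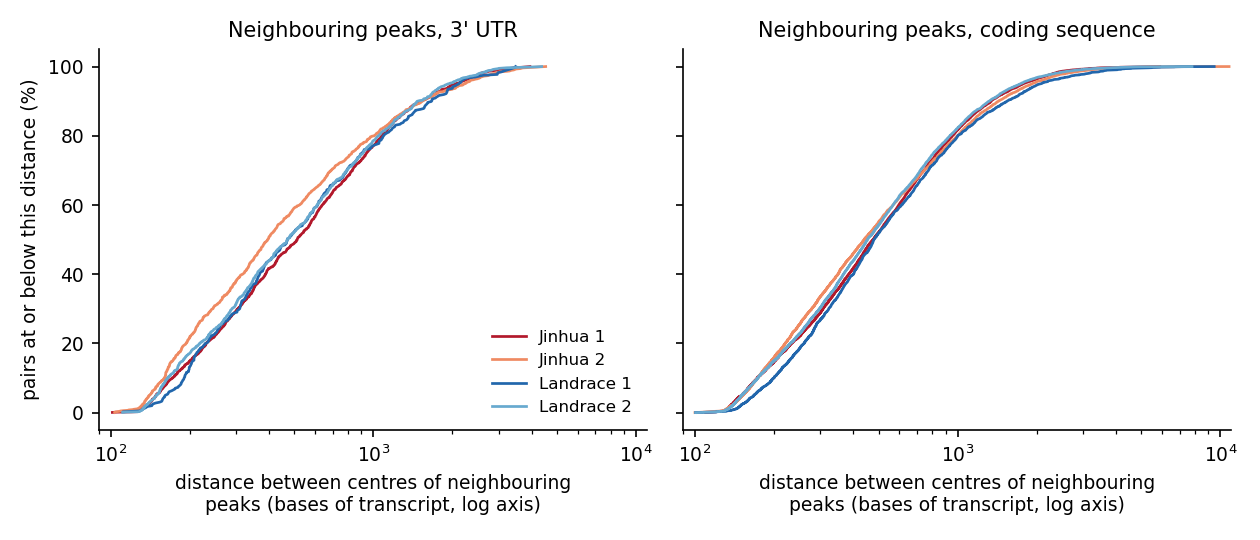
Cumulative share of neighbouring peak pairs (%, y axis) against the distance between their centres in bases of transcript (log x axis), in the 3' UTR (left) and in coding sequence (right), 1 line per IP library. The 3' UTR line of Jinhua 2, with a median of 396 bases, runs left of the other 3, whose medians are 470.75 to 512.75 bases.

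Sharing between animals was counted as an overlap of at least 1 base on the same transcript with a peak of any location. Of the 3' UTR peaks, 77.8% and 82.9% in Jinhua and 92.8% and 84.0% in Landrace were overlapped in at least 1 other library, against 83.8% and 83.9% and 92.6% and 84.0% of the coding peaks. Jinhua replicate 1, the longest list, had the lowest share and the only gap of over 2 points, -5.98 percentage points. Over the 4 libraries the difference averaged -1.70 points (p = 0.375, two-sided exact sign-flip permutation test, smallest possible p 2/16), and its size depended on the libraries and settings. It was -0.15 points without Jinhua replicate 1, -0.06 without Landrace replicate 2, -2.43 without Jinhua replicate 2 and -1.93 without Landrace replicate 1. With peaks of at least 150 bases it was -0.57 points, and with an overlap of at least 100 bases -0.81 points.

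Sharing of 3' UTR peaks showed no uniform order by breed. Of the peaks of Jinhua replicate 1, 57.9% were overlapped in Jinhua replicate 2, against 33.9% in Landrace replicate 1 and 63.2% in Landrace replicate 2. Of the peaks of Landrace replicate 2, 40.0% were overlapped in Landrace replicate 1, against 76.7% and 58.7% in Jinhua replicates 1 and 2. Each of these animals had its highest share with an animal of the other breed. Of the peaks of Jinhua replicate 2, 74.5% were overlapped in Jinhua replicate 1, against 42.1% and 62.8% in Landrace replicates 1 and 2, so here the share within the breed was highest. Of the peaks of Landrace replicate 1, 77.0% were overlapped in Landrace replicate 2, against 79.9% and 76.9% in Jinhua replicates 1 and 2. The lists differ in length, so the shares give no ranking of animals by likeness.

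Merging overlapping 3' UTR peaks over the animals gave 6066 regions. Of these, 37.7% were in 1 library, 22.6% in 2, 19.8% in 3 and 19.8% in all 4, against 34.8%, 25.0%, 21.1% and 19.1% of the 20239 coding regions. The most frequent pattern after presence in all 4 was presence in Jinhua replicate 1 alone, with 974 regions, and then presence in all but Landrace replicate 1, with 842. Without Landrace replicate 1, 2020 regions were in all 3 remaining libraries, compared with the 1204 in all 4. Where each of the 4 libraries held exactly 1 peak, its centre ranged over a median of 31 bases in 803 3' UTR regions and 33.5 bases in 2503 coding regions. Only overlapping peaks were merged, which in itself limits this range.

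**Figure D3:**
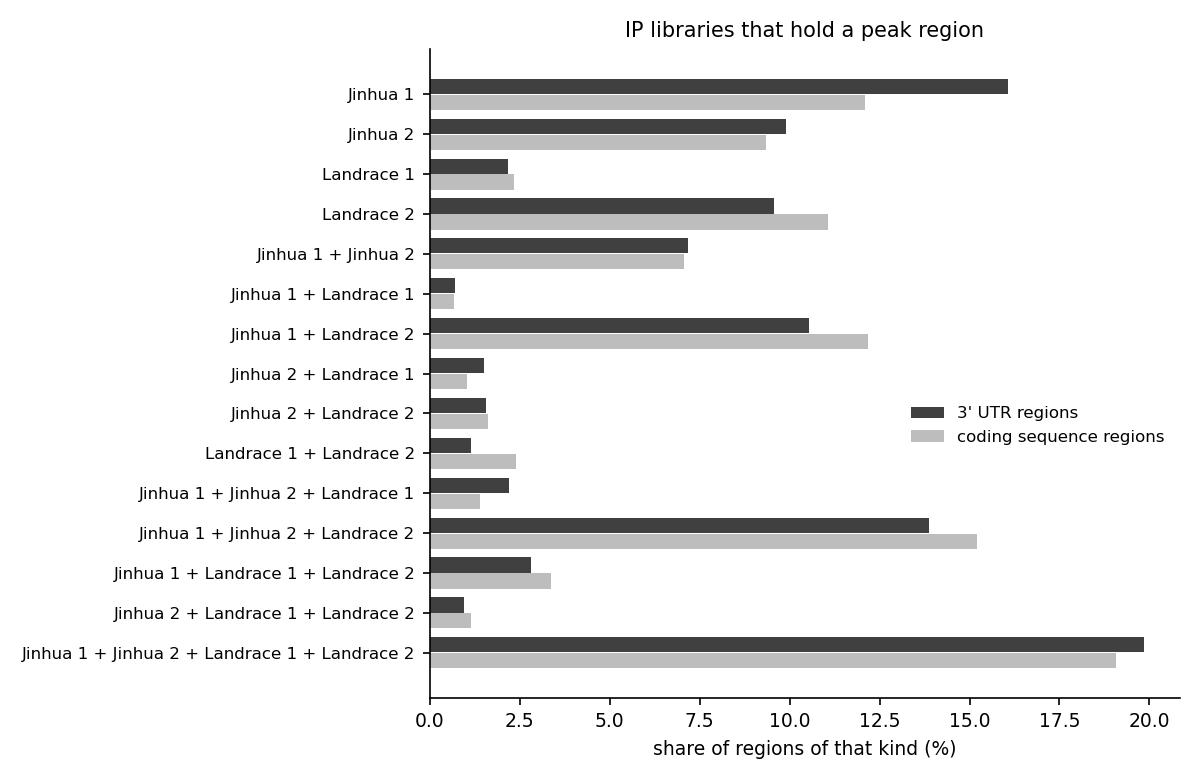
Share of merged peak regions (%, x axis) found in each combination of the 4 IP libraries (y axis), for 6066 3' UTR regions (dark bars) and 20239 coding regions (light bars). All 4 libraries (19.8% of 3' UTR regions) and Jinhua 1 alone are the 2 longest dark bars, and combinations with Landrace 1 but not all 4 are short.

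Regions of 1 breed were few. In both Jinhua and no Landrace library lay 436 regions, or 7.19% of the 3' UTR regions, and in both Landrace and no Jinhua library 70, or 1.15%. Over the regions of all transcript parts the same counts gave 6.95% and 2.32%, and coding regions alone had 7.06% and 2.41%, so the Jinhua share of the 3' UTR was near the background and the Landrace share below it. Pairs across the breeds also had regions to themselves. Jinhua replicate 1 had 639 3' UTR regions with Landrace replicate 2 alone and 43 with Landrace replicate 1 alone. Jinhua replicate 2 had 94 with Landrace replicate 2 alone and 91 with Landrace replicate 1 alone. Both the 436 and the 70 regions of 1 breed lay within this range. The surplus of Jinhua over Landrace regions was not seen without Landrace replicate 1, the short list. A breed with 1 library left must, however, meet a looser condition. Without that library 578 regions were in both Jinhua and not in the Landrace library, and 669 were in the Landrace and in neither Jinhua library. Without any 1 of the other libraries the Jinhua count was between 1046 and 1419 and the Landrace count between 128 and 238.

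The genes of highest level with such a region, 6 per breed, were taken from those with at least 5 FPKM in all 4 input libraries. LGALS1, which encodes galectin-1, had a 3' UTR peak at bases 706 to 928 of transcript ENSSSCT00000000131 in Jinhua replicate 2. In Jinhua replicate 1 the overlapping peak, at bases 721 to 830, was listed as coding, and neither Landrace animal had a peak on the transcript. The level was 4234 and 3649 FPKM in Jinhua and 2263 and 3139 FPKM in Landrace (limma, log2 difference 0.56, adjusted p = 0.599). Both Jinhua values were above both Landrace values.

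PDHA1, a subunit of pyruvate dehydrogenase, had a Jinhua region at bases 2301 to 2487 of transcript ENSSSCT00000027771, 1 of 3 regions in its 3' UTR. Its level was 290.3 and 511.2 FPKM in Jinhua and 157.5 and 256.9 FPKM in Landrace. CFL1 (cofilin, an actin-severing protein) had 1269 and 1136 FPKM in Jinhua and 982 and 681.6 FPKM in Landrace. Level and region went the same way in these genes, and limma called none of them (adjusted p 0.516 for PDHA1 and 0.578 for CFL1).

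FAH (fumarylacetoacetase), RGS3 (a regulator of G protein signalling) and C9orf16 also had a Jinhua region. The level of C9orf16 was 135.2 and 651.4 FPKM in Jinhua and 2584 and 380.7 FPKM in Landrace. The RGS3 level was 344 and 214 FPKM in Jinhua and 623.8 and 219 FPKM in Landrace, and the FAH level 356.8 and 514.6 FPKM in Jinhua and 304 and 469.6 FPKM in Landrace. The breeds overlapped in all 3.

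On the Landrace side, UQCR10, a small subunit of complex III of the respiratory chain, had a peak at bases 211 to 386 of transcript ENSSSCT00000031506 in both Landrace animals and none in Jinhua. Its level was 665.8 and 1101 FPKM in Jinhua and 380.5 and 629.7 FPKM in Landrace. The peak was thus listed in the breed with the lower level (limma, log2 difference 0.81, adjusted p = 0.547).

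CCDC69 had 2 Landrace regions, at bases 1301 to 1530 and 2931 to 3093 of transcript ENSSSCT00000029919, out of 6 in its 3' UTR. Its level was 109.6 and 164.4 FPKM in Jinhua and 223.9 and 115.7 FPKM in Landrace. IGFBP5, a secreted binding protein of insulin-like growth factors, had a Landrace region at bases 430 to 590 of transcript ENSSSCT00000032259, beside 3 others. Its level was 115.7 and 120.4 FPKM in Jinhua and 129.2 and 385.1 FPKM in Landrace, highest in the library with the highest sum of muscle genes, whose part in this was not tested.

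The Landrace regions of AHNAK (bases 6819 to 7000 of transcript ENSSSCT00000029753), of the MHC class II gene SLA-DQA and of the chaperonin gene CCT7 came with levels that differed little or overlapped. In AHNAK both Jinhua animals had a peak just behind that region, at bases 7015 to 7168 in replicate 1 and 7010 to 7165 in replicate 2. The peaks of the breeds shared no base here, and whether they mark the same site was not tested. CCT7 had 198.7 and 180.6 FPKM in Jinhua and 178.5 and 162.3 FPKM in Landrace, and SLA-DQA had 264.3 and 176.3 FPKM in Jinhua and 121.3 and 252.2 FPKM in Landrace. A region of 1 breed thus occurred at a higher, a lower and a similar level in that breed.

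Taken over all genes with such regions, the level leaned toward the breed with the peak. These genes were chosen by called peaks, and calls went with level. In Landrace replicate 1, 20.2% of genes of 3 to 10 FPKM had any peak, against 71.1% between 30 and 100 FPKM. The part of that choice in the lean was not tested. The 408 tested genes with a Jinhua region had a median log2 difference in input level of 0.23 (Jinhua minus Landrace, on log2(FPKM + 1)), and the 67 with a Landrace region of -0.55, beside 0.15 for all 13693 genes tested. Both Jinhua animals lay above both Landrace animals in 39.2% of the first set and 8.96% of the second, against 30.2% of all genes. Both Jinhua animals lay below in 13.0% of the first set and 53.7% of the second, against 18.1% of all genes. With any 1 animal left out and the regions found anew, the first median was between 0.13 and 0.25 and the second between -0.46 and -0.25, both nearest 0 without Landrace replicate 1. In the first set the lead over all genes was lost without Landrace replicate 2, with 0.21 against 0.23.

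**Figure D4:**
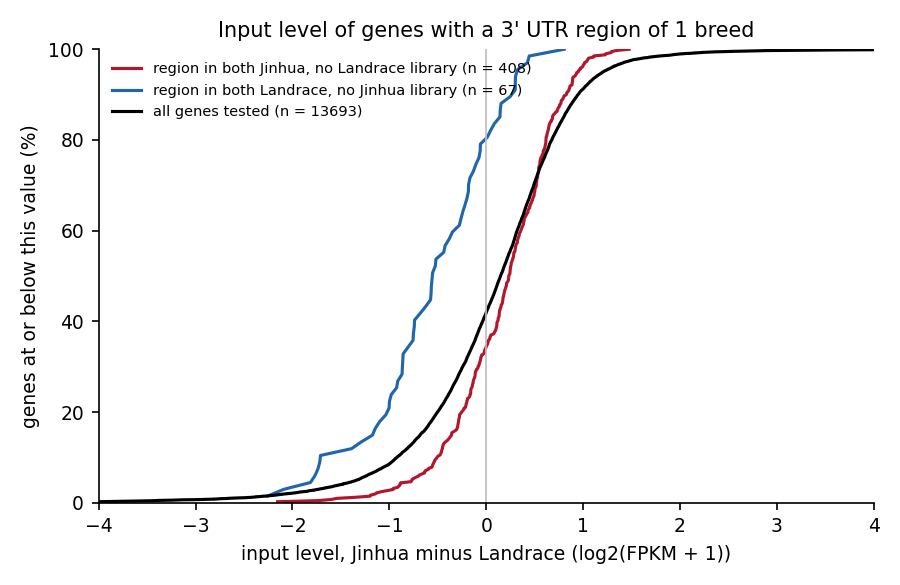
Cumulative share of genes (%, y axis) against the difference in input level, Jinhua minus Landrace, on log2(FPKM + 1) (x axis), for genes with a 3' UTR region in both Jinhua and no Landrace library, genes with one in both Landrace and no Jinhua library, and all genes tested. The Landrace set (median -0.55) lies to the left of all genes (median 0.15) and the Jinhua set (median 0.23) close to them; differences beyond 4 in size are outside the axis.

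No gene with a 3' UTR peak passed the test for a difference in input level between the breeds. With limma on log2(FPKM + 1), 0 of the 3801 tested genes were called at an adjusted p under 0.05, beside 5 of the 13693 genes tested in all (0.0365%). At an unadjusted p under 0.05 there were 225 (5.92%, with 113 higher and 112 lower), against 1331 of all genes tested (9.72%, with 801 higher and 530 lower). The smallest adjusted p among the members was 0.449. Their median difference was 0.03 on the log2 scale, against 0.15 over all genes tested. With median-ratio scaling of the libraries these medians were -0.14 and -0.01. For the 984 tested genes with a 3' UTR peak in all 4 animals the median was -0.09, and unadjusted p values under 0.05 came with higher levels in Jinhua for 10 of them and lower levels for 37 (4.78% in all). These genes include only ones with a peak in the short list of Landrace replicate 1, and the part of that choice in the direction was not tested.

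Genes with a 3' UTR peak had a somewhat higher median level than genes with peaks elsewhere only. Among genes of at least 1 FPKM the median was 16.6 and 17.9 FPKM in Jinhua and 29.9 and 18.4 FPKM in Landrace, against 15.5 and 16.9 and 24.7 and 14.5 FPKM for genes with peaks elsewhere. The upper end ran the other way in each library. Their 95th percentile was 184.4 and 191.3 FPKM in Jinhua and 229.6 and 199.4 FPKM in Landrace. For genes with peaks elsewhere it was 286.5 and 311.6 FPKM in Jinhua and 336.8 and 266.4 FPKM in Landrace. The difference in medians on log2(FPKM + 1) was above 0 in all 4 libraries, with a mean of 0.19 (p = 2/16, two-sided exact sign-flip permutation test, the smallest p that 4 libraries allow). Genes without any peak had 4.63 and 4.48 FPKM in Jinhua and 5.37 and 4.32 FPKM in Landrace.

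The share of genes with a 3' UTR peak was low at low input levels, highest in the middle classes and lower again among the most abundant transcripts. Between 30 and 100 FPKM it was 30.4% and 29.8% in Jinhua and 24.6% and 28.2% in Landrace. At 300 FPKM or more it was 19.3% and 14.7% in Jinhua and 12.1% and 17.0% in Landrace, with intervals that did not meet those of the 30 to 100 FPKM class in any animal. The share with a coding peak was 70.0% and 60.9% in Jinhua and 48.0% and 65.6% in Landrace at 300 FPKM or more, against 74.7% and 71.2% and 60.0% and 72.2% between 30 and 100 FPKM. Between 1 and 3 FPKM, 3' UTR shares were at most 6.13%. FPKM values carry no read number, so the depth behind them is unknown.

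**Figure D5:**
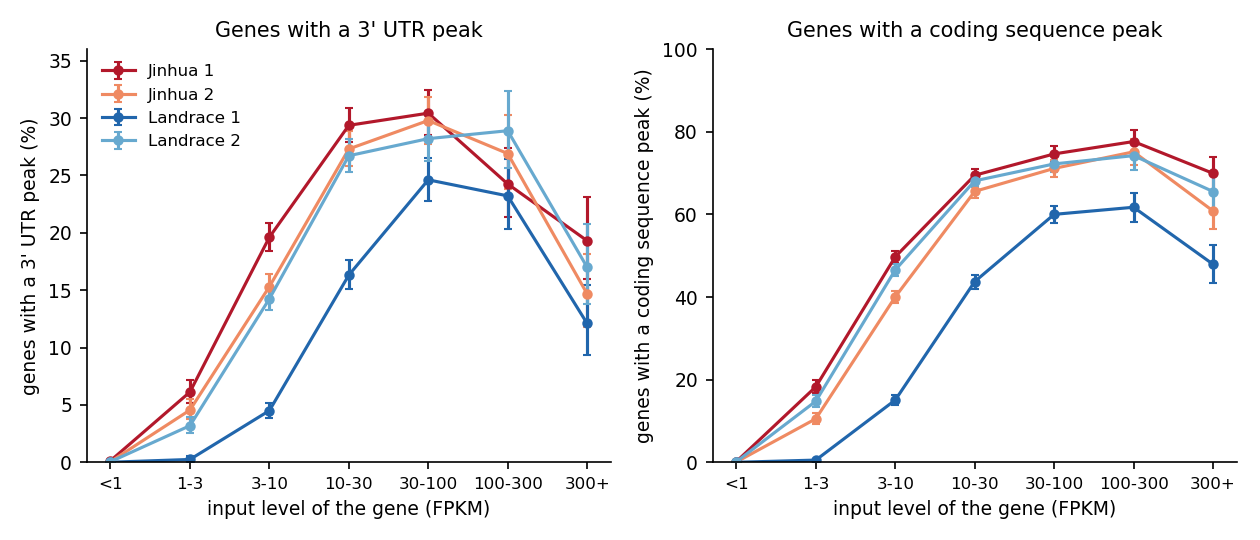
Share of genes with a 3' UTR peak (left) and with a coding sequence peak (right) in % (y axes), by the input level of the gene in FPKM (x axis, 7 classes), 1 line per animal with 95% Wilson intervals as bars. In each animal the 3' UTR share at 300 FPKM or more (12.1% to 19.3%) is below that between 30 and 100 FPKM (24.6% to 30.4%).

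The level also went with the sharing of regions. Of regions in genes of 3 to 10 FPKM (mean over the animals), 8.02% were in all 4 libraries, against 21.3% at 10 to 30 FPKM, 31.7% at 30 to 100 FPKM and 34.1% at 300 FPKM or more. The number of peaks per gene did not follow the level. Across the genes with a 3' UTR peak in a library, the Spearman correlation between FPKM and number of peaks was -0.0233 and 0.0159 in Jinhua (2982 and 2483 genes) and 0.0473 and 0.00972 in Landrace (1433 and 2483 genes). Genes of 1 library share its depth and are no independent replicates.

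Of the 10 most abundant transcripts with a 3' UTR peak in all 4 animals, SCD, CIDEC, AGPAT1, CD36 and MGLL act in the making, storage or release of fat. CIDEC, a protein that fuses lipid droplets, had 1 peak in each animal, between bases 702 and 1014 of transcript ENSSSCT00000012648, at 1650 and 2433 FPKM in Jinhua and 1804 and 1982 FPKM in Landrace. CD36, a fatty acid transporter, also had 1 in each, between bases 1902 and 2133 of transcript ENSSSCT00000034552. Its level was 1025 and 1110 FPKM in Jinhua and 497.6 and 474.8 FPKM in Landrace, groups that did not overlap (limma, log2 difference 1.13, adjusted p = 0.496). The peak was therefore listed in both breeds at levels that did not overlap.

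MGLL, the lipase that splits monoacylglycerol, had 3 and 2 peaks in Jinhua and 3 and 2 in Landrace. AGPAT1, which acylates lysophosphatidic acid on the way to triglycerides, had 2 and 1 in Jinhua and 1 and 1 in Landrace. ADIPOR2, a receptor of adiponectin, had 1 in each, and AKT2, the insulin-regulated kinase of adipocytes, had 1 and 1 in Jinhua and 1 and 2 in Landrace. The laminin-binding BCAM had 3 and 3 peaks in Jinhua and 2 and 2 in Landrace, at 1012 and 1805 FPKM in Jinhua and 6380 and 2012 FPKM in Landrace, so the breed with more peaks had the lower level.

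EEF2, the elongation factor that moves the ribosome along, had 1 peak in each animal around the end of the coding sequence. In Landrace replicate 1 it began at base 2560 of transcript ENSSSCT00000031794, where Landrace replicate 2 had a coding peak to base 2641 and a touching 3' UTR peak from 2642. One stretch could thus be listed as 1 or as 2 peaks. FHL1, a LIM domain protein, had 1 in each animal between bases 2128 and 2351 of transcript ENSSSCT00000013884.

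The most abundant transcripts with peaks in the 3' UTR alone were SSR2, a subunit of the translocon-associated complex, and DHRS3, a retinaldehyde reductase. SSR2 had 2 and 2 peaks in Jinhua and 1 and 1 in Landrace, all within 1 region at bases 607 to 1004 of transcript ENSSSCT00000007120. Both Jinhua animals had 2 adjoining peaks where both Landrace animals had a single wider one, of 377 and 311 bases. The SSR2 level was 547.7 and 720.6 FPKM in Jinhua and 484.5 and 695.9 FPKM in Landrace. The peaks reached from base 651 to 960 and 651 to 1004 in Jinhua and from 607 to 983 and 651 to 961 in Landrace, so the number of peaks differed over much the same stretch.

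GADD45G, a stress-response gene, had 1 peak in each animal at 85.2 and 42.5 FPKM in Jinhua and 309.2 and 154.1 FPKM in Landrace (limma, log2 difference -1.84, adjusted p = 0.496). UBE2L3, a ubiquitin-conjugating enzyme, had 1 in each at 137.7 and 113.5 FPKM in Jinhua and 62.5 and 75.0 FPKM in Landrace. TMEM141 had 1 in each at 60.3 and 112 FPKM in Jinhua and 183.6 and 165.8 FPKM in Landrace. In these 3 genes the breeds did not overlap in level while the number of peaks was equal. Limma called none of them, and such a lack of overlap was common. Over all genes tested, both Jinhua animals lay above both Landrace animals in 30.2% and below them in 18.1%. The others were the proton pump subunit ATP6V0E1, the mitochondrial FUNDC2 and TXN2, the endoplasmic reticulum protein DERL1 and the membrane protein CLSTN3, with 1 to 3 peaks in each animal.

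Gene groups differed in how many of their members carried a 3' UTR peak in at least 1 animal. The background was 27.8%, or 3801 of the 13693 genes with a mean of at least 1 FPKM. It was not matched to the groups by level. In single animals the share was at most 6.13% between 1 and 3 FPKM, against 24.6% to 30.4% between 30 and 100 FPKM. The part of level in the shares of the groups was not tested. A transcript without an annotated 3' UTR can have no such peak, and the groups were not compared in this. Of fatty acid and triglyceride synthesis genes 9 of 17 had one, 4 of them in all 4 animals. LPIN1, a phosphatidate phosphatase, had 3 and 3 peaks in Jinhua and 1 and 2 in Landrace, and ME1, which supplies NADPH, had 1 and 1 in Jinhua and 1 and 4 in Landrace. No list described here had a member called between the breeds.

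Fatty acid oxidation had 8 of 18, 5 of them in all 4 animals. HADHA, of the mitochondrial trifunctional protein, ACAA2, a thiolase, and SLC25A20, the carnitine carrier, had 1 in each animal. The genes of lipid droplets and lipolysis had 6 of 15, with CIDEC and MGLL in all 4 animals. G0S2, which inhibits the lipase ATGL, had 1 peak in Jinhua replicate 1 and in both Landrace animals and no coding peak. Of the adipogenic transcription factors 5 of 13 had one. The liver X receptor gene NR1H3 had 1 peak in each animal, GATA2, a factor of preadipocytes in mice, 3 and 1 in Jinhua and 3 and 3 in Landrace, and CEBPD 1 and 1 in Jinhua and 0 and 1 in Landrace.

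Insulin and IGF signalling had 9 of 17 with 35 regions in all. The insulin receptor gene INSR had 4 and 4 peaks in Jinhua and 2 and 3 in Landrace, and PIK3R1, the regulatory subunit of PI 3-kinase, had 3 and 4 in Jinhua and 2 and 2 in Landrace. IGF1R, the IGF1 receptor gene, had the most regions of all 3824 genes, 11, with 6 and 2 peaks in Jinhua and 0 and 8 in Landrace at 9.74 and 4.49 FPKM in Jinhua and 12.1 and 13.0 FPKM in Landrace. Its peaks thus varied from 0 to 8 between the 2 Landrace animals at a like level. The animal with 0 was Landrace replicate 1, the short list, and the part of list length was not tested.

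TGF-beta and BMP signalling had 10 of 18, but a single member, SMAD3, in all 4 animals, with 5 and 4 peaks in Jinhua and 3 and 4 in Landrace. The members numbered 8 and 10 in the Jinhua animals and 2 and 4 in the Landrace animals. BMPR2, TGFB2 and TGFBR1, which encode receptors and a ligand, had 1 peak in each Jinhua animal and none in Landrace. Members of the WNT, immediate early gene and endothelium lists had this pattern too. Among the 3824 genes with a 3' UTR peak, 409 had a region in both Jinhua and no Landrace library. Over all genes the Jinhua animals had 2982 and 2483 genes with a 3' UTR peak and the Landrace animals 1433 and 2483. WNT signalling had 7 of 16, among them SFRP1, a secreted antagonist, with 4 and 3 peaks in Jinhua and 3 and 2 in Landrace, and the coreceptor gene LRP6 with 2 and 2 in Jinhua and 1 and 2 in Landrace.

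Of the immediate early genes, which give short-lived mRNAs after a stimulus, 9 of 16 had a 3' UTR peak. JUNB had 1 in each animal and no coding peak at 65.3 and 18.6 FPKM in Jinhua and 370.7 and 33.7 FPKM in Landrace, and BTG2 had 2 and 1 in Jinhua and 2 and 1 in Landrace. FOS had 1 and 1 in Jinhua and 0 and 1 in Landrace, although its level was highest, 524.8 FPKM, in Landrace replicate 1, the animal without the peak. The circadian clock genes had 7 of 14, with PER1 in all 4 animals. Of the cytokine signalling suppressors 5 of 14 had one, led by the phosphatase gene PTPN11 with 5 and 4 peaks in Jinhua and 2 and 2 in Landrace.

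Other groups had few or none, and whether their transcripts had an annotated 3' UTR is not known here. None of the 18 measured cytosolic ribosomal protein genes had a 3' UTR peak in any animal, while 17 had a peak elsewhere. None of the 9 measured genes of the m6A writer complex had one either, and all 9 had a peak elsewhere, as WTAP with 1 and 2 coding peaks in Jinhua and 0 and 1 in Landrace. The list of readers and erasers had 2 of 6, and the 7 of its 14 genes found in the data included no eraser. ELAVL1 had 2 and 2 peaks in Jinhua and 1 and 2 in Landrace, and YTHDC2 had 1 in Jinhua replicate 1 alone. Extracellular matrix genes had 3 of 18 while all 18 had a peak somewhere. LAMA4, a laminin chain, had 1 in each animal.

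Oxidative phosphorylation had 9 of 22 but only UQCRC2, of complex III, in all 4 animals. Among genes of other cell types, endothelium had 7 of 11, with 2 and 2 peaks in Jinhua and 1 and 2 in Landrace for PECAM1, an adhesion molecule of endothelial cells. Lymphocyte genes had 5 of 6, all of them in 1 or 2 animals, epithelium 2 of 4, and the macrophage list 1 of 11 (C1QC, a complement component). Skeletal muscle had 1 of 14, DES (desmin), with 2 and 1 peaks in Jinhua and 0 and 2 in Landrace. Its level was 15.7 and 9.78 FPKM in Jinhua and 7.63 and 77.7 FPKM in Landrace. None of the 3 blood genes had a 3' UTR peak.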

How the data were processed

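Per the labels' protocols, TRIzol extraction and bead purification of mRNA were followed, for the IP libraries, by sonication and pull-down with an antibody to m6A, and by a stranded library kit. Per the submitters' processing notes, TopHat2 2.0.14, Sscrofa10.2 and susScr3 were named with no role; the peak caller, its threshold and the annotation release are not given in the sources used here. Peak lists deposited by the authors (1 per IP library) give transcript, start, end and location of each peak and, per gene, its number of peaks as another value, with no score, fold or read number. The authors' input table holds 1 value per gene, taken as FPKM from the header style and the values, since no unit is named; it has 22676 gene IDs and its sums differ between libraries (1540000 to 4144000), so depth is unknown. A further 4 peak lists and 4 FPKM columns matched no sample and were not analysed here.

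Peaks of different libraries were merged into regions where they overlapped by at least 1 base on a transcript, and a region was in a library where any peak of it overlapped. Levels were compared with limma 3.58.1 (R 4.3.3; two-sided, variances moderated along a trend with level, Benjamini-Hochberg adjusted p under 0.05) on log2(FPKM + 1), a scale that understates changes of low genes, for genes with a mean FPKM of at least 1, all 13693 of them. The step was tested on simulated data with known answers. Single values were compared by exact permutation over libraries (Python, scipy 1.17.1). Replicate numbers did not pair the animals, which the labels count as separate males.

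The members, the 21 gene lists and the naming rules were chosen with earlier results of these data known. Named were the 10 genes with most 3' UTR peaks, the 10 most abundant with one in all 4 animals, the 10 most abundant with peaks in the 3' UTR alone, 6 abundant genes per breed with a region of 1 breed (at least 5 FPKM in all 4 input libraries), the 5 longest gaps, and up to 4 members per list. INSR, IGF1R, ACER2, BMPR2, TGFB2 and TGFBR1, and the genes under other observations, were named after their values were seen. Symbols came from the peak lists for 3133 genes and from an Ensembl name table for 377. No sequences were used here.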

Additional observations from a re-analysis of the deposited data

How the results depend on the processing

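With 1 animal left out in turn, regions in both Jinhua and no Landrace library numbered 578 to 1419 (436 with all 4), regions in both Landrace and no Jinhua library 128 to 669 (70 with all 4), and regions in every library 1254 to 2020 (1204 with all 4). Part of this lies in the count itself, since a breed with 1 library left asks for 1 library only. The difference in 3' UTR peaks per gene ranged from -0.02207 to 0.1639, with the negative value without Landrace replicate 1. That in the share of peaks ranged from 0.9307 to 2.389 points, and that in sharing between libraries, 3' UTR minus coding sequence, from -2.425 to -0.06079 points. Other settings were a minimum width of 150 bases and an overlap of 100 bases or of a set share of the shorter peak. Also tried were adding the peaks listed as UTR without an end and a minimum FPKM. None of them changed a direction or moved a count by over 1.5 times. The difference in spacing, 0.0 bases with all peaks, had no direction to keep. It was -13.44 bases with the minimum width, 1.75 bases between peak edges, and -12.0 to 14.83 bases with 1 animal left out. The number of genes called by limma over all genes was 5, against 3 with no filter on low values, 0 with median-ratio scaling and 0 with any animal left out (334 to 2728 genes at an unadjusted p under 0.05); the cause was not tested. With the replicate number as a block it was 0 (695 genes unadjusted), and the deviations of animals with the same number correlated at -0.384, so the numbers do not pair them; with the crossed replicate block, chosen after seeing the data, it was 0 (1603 unadjusted). Among genes with a 3' UTR peak limma called 0 under each of these settings. Leaving out animals to recompute the level of genes with a region of 1 breed was also chosen after seeing the data. With 2 animals per breed, no permutation test between breeds can fall under 0.33, and peak lists without read numbers do not separate an absent mark from an uncalled one.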

Other observations

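Marking of the 3' UTR without any coding peak was uneven among the gene lists, a pattern noticed after the values were seen and not tested. Of all 3824 genes with a 3' UTR peak, 599 (15.7%) had no coding peak in any of the 4 animals. Among the TGF-beta and BMP signalling genes this held for 6 of 10. They were the ligand genes TGFB1, with 3 and 1 3' UTR peaks in Jinhua and 1 and 0 in Landrace, and TGFB2, and the receptor genes ACVR2A, TGFBR1, ACVR1 and BMPR1A. ACVR2A, a receptor of activins, had 1 and 2 peaks in Jinhua and 0 and 1 in Landrace at 4.48 and 4.44 FPKM in Jinhua and 2.73 and 5.26 FPKM in Landrace. It held for 3 of 9 oxidative phosphorylation genes (COX4I1, COX6C and NDUFB3, each with 1 peak in 1 animal), for 3 of 5 lymphocyte genes, and for 0 of 9 genes of fatty acid and triglyceride synthesis, 0 of 9 of insulin and IGF signalling and 0 of 7 of WNT signalling.

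Further genes of fatty acid oxidation and of endothelium carried several 3' UTR peaks. CPT1A, which admits long-chain fatty acids to mitochondria, had 4 and 2 in Jinhua and 0 and 3 in Landrace, against 1 and 0 and 0 and 0 coding peaks. Landrace replicate 1, without a peak, had its highest level, with 47.4 and 20.9 FPKM in Jinhua and 75.5 and 39.1 FPKM in Landrace. UCP3, an uncoupling protein gene, had 3 and 3 peaks in Jinhua and 1 and 2 in Landrace. The VEGF receptor gene KDR had 1 and 2 in Jinhua and 1 and 3 in Landrace.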
